A study of Mus musculus with 5 samples.

Results

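The genes described here are 40 members of the autophagy and lysosome machinery, chosen by symbol from the 32285 genes of the deposited table, and all 40 were found in it. Of these, 20 form the lysosomal group, which is 19 genes of lysosomal proteins and Tfeb, a transcription factor for such genes, and 20 form the autophagy group, with genes of autophagosome formation and cargo receptors. Their levels were read from hepatocytes, the main functional cells of the liver, in 5 droplet-based single-cell RNA libraries (10x Genomics 3′ chemistry v3) from male wild-type C57BL/6J mice on normal chow (lab diet #5053). All mice had been trained for 3 days to fast 16 h overnight and to eat for 8 h by day, and had chow with 20% sucrose in the water for 4 h on the day of the experiment. The fed library (0 h) was taken at 13:00, and the others after 4, 8, 16 and 24 h without food and sucrose, at clock hours 17, 21, 5 and 13, so that only 0 h and 24 h share an hour of the day. Each time point is 1 library, the number of animals in it is not given in the sources used here, and no test across animals could be made.

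Autophagy encloses a piece of cytoplasm or an organelle in a double membrane, the autophagosome, which then fuses with a lysosome. The lysosome is held acid by a proton pump, and its hydrolases break the content down to amino acids, lipids and sugars that the cell can use again. In liver this process is known as a source of fuel and of glucose precursors between meals, and nutrient sensors at the lysosomal surface restrain it after feeding. TFEB and related factors bind a short promoter element, called CLEAR, in many lysosomal genes.

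A barcode was taken as a hepatocyte when it had at least 1000 UMIs (unique molecular identifiers, each standing for 1 captured transcript), at least 500 genes and 2% to 30% mitochondrial UMIs. This left 7826, 4567, 2716, 9125 and 4576 barcodes at 0, 4, 8, 16 and 24 h, with 33521626 to 45532684 UMIs of nuclear-encoded genes per library. Fewer than 2% mitochondrial UMIs were found in 2172, 5345, 576, 234 and 5400 further barcodes. These hepatocyte barcodes had medians of 5408, 12097, 15005, 4391 and 8979 UMIs, so that the fed and 16 h libraries were the shallowest per barcode. The 7 hepatocyte markers were at 2636 CPM (UMIs per 1000000 nuclear-encoded UMIs) or more in each library. The 9 Kupffer cell markers summed to 42.3 CPM at 0 h and to 0.148 to 6.06 CPM in the fasted libraries, and 6 of the 9 were at 0 at 8 h. The 9 endothelial markers summed to 91.4 CPM at 0 h and to 12.3 to 32.7 CPM later. The acute-phase genes summed to 14330 CPM at 16 h and to 2440 to 6059 CPM in the other libraries. Of the 28810 barcodes, 146 had a sequence that also occurred in another library.

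The 300-base promoters of RefSeq (GRCm38.p6, 250 bases before the start) were matched for 31 of the 40 genes. The E-box CACGTG, which reads the same on both strands, was in 12 of them (38.7%), against 8.09% of 27025 genes with a promoter. Its extension TCACGTGA, the core of the CLEAR element, was in 6 (19.4%), against 1.12% of all genes, and every such match also counts as an E-box. The 7 occurrences in these 6 genes are printed as a sequence feature that the choice by symbol did not read. Most of the 31 matched members lack it. The element is known from lysosomal genes, so that its share here does not stand apart from their choice. Capitals mark TCACGTGA in each 28-base window, read 5′ to 3′ on the strand of the gene.
Ctsd chr7:142387909-142387936 minus: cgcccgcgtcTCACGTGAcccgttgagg
Ctsa chr2:164833750-164833777 plus: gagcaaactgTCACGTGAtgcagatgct
Ctsa chr2:164833767-164833794 plus: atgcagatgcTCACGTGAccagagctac
Mcoln1 chr8:3500463-3500490 plus: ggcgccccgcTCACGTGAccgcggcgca
Atp6v0d1 chr8:105566051-105566078 minus: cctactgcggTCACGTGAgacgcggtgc
Atp6v1a chr16:44139374-44139401 minus: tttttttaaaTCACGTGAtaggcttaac
Atg3 chr16:45158747-45158774 plus: gagagtcgagTCACGTGAggccttaggt
The windows of Atp6v0d1 and Atg3 lie before the annotated gene (GENCODE M21), and the others lie within it.

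The promoter of Lamp1, a main protein of the lysosomal membrane, held 4 copies of the E-box, the most among the matched members. It is shown on the plus strand at chr8:13158911-13159160 with the copies in capitals, because none of them extends to TCACGTGA and because Lamp1 moved little with fasting. Beside it stands the stretch before Gabarapl1 on the plus strand at chr6:129532942-129533159, the member with the highest ratio to the fed library, which holds no E-box.
Lamp1: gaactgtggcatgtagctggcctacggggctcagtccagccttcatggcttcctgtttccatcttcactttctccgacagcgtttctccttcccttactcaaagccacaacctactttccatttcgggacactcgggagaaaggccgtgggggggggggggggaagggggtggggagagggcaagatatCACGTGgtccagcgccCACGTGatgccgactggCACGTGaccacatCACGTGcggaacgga
Gabarapl1: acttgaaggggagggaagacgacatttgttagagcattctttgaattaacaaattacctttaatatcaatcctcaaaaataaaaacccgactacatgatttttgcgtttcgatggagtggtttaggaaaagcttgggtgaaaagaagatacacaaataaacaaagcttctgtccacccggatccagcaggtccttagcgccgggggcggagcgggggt
The FoxO motif GTAAACA was in none of the 31 matched promoters and in 4.05% of all promoters (both strands read), which says only that these letters are not in these windows. The cyclic AMP response element TGACGTCA was in 1 of the 31, that of Atg5, against 2.03% of all.

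Against the fed library, the autophagy members with the highest ratios were Gabarapl1 and Map1lc3b, and the lysosomal member with the lowest was Mcoln1. A gene is called higher or lower here when its CPM differed by 1.5-fold or more and reached 10 CPM in either library, which is a rule of size and not a test. The fed library enters every such comparison. At 4 h, 3 members were higher and 2 lower of 39 with 10 CPM, and 9.84% and 17.5% of the 7299 genes compared were called in these directions. At 8 h the count was 7 higher and 2 lower of 40, against 14.7% and 23.2% of 7389 genes. At 16 h it was 5 higher and 0 lower of 39, against 9.42% and 11.8% of 7355 genes. At 24 h it was 3 higher and 2 lower of 39, against 12.8% and 20.6% of 7356 genes.

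The shares called higher among members were thus near those of all genes, the shares called lower were below them at each time, and most members lay within 1.5-fold of their fed level. The median log2 ratio of the members was 0.10, 0.20, 0.12 and 0.12 at 4, 8, 16 and 24 h, beside -0.09, -0.08, -0.02 and -0.10 for all genes compared. The sign of the members' median depended on the barcodes and the scaling at 2 of these times. At 4 h it was -0.18 over barcodes of 2% to 15% mitochondrial UMIs and -0.03 with all UMIs in the denominator. At 24 h it was -0.16 with 0% to 30% mitochondrial UMIs, -0.02 with the mean CPM per barcode and -0.17 in the central part of the lobular range alone. For the lysosomal members it was -0.03, 0.21, 0.05 and 0.13, and for the autophagy members 0.14, 0.20, 0.14 and 0.07. No autophagy member was called lower at any time under this rule. Summed over the 20 genes, autophagy transcripts were at 1889 CPM when fed and at 2011, 2352, 2256 and 2093 CPM in order of fasting. Lysosomal transcripts summed to 4283 CPM when fed and to 4403, 4406, 4842 and 4573 CPM. The 8 h counts depended on how the libraries were scaled. With TMM, a scaling by a trimmed mean of gene ratios, 7 lysosomal and 7 autophagy members were higher at 8 h and 1 lysosomal member lower, in place of 3, 4 and 2, while the shares of all genes became 22.6% higher and 16.2% lower. TMM moved the median of all genes from -0.08 to 0.12 at 8 h, from -0.09 to 0.06 at 4 h and from -0.10 to 0.04 at 24 h. Such a shift is the same for each gene, and it turns the lysosomal median at 4 h positive.

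**Figure D1:**
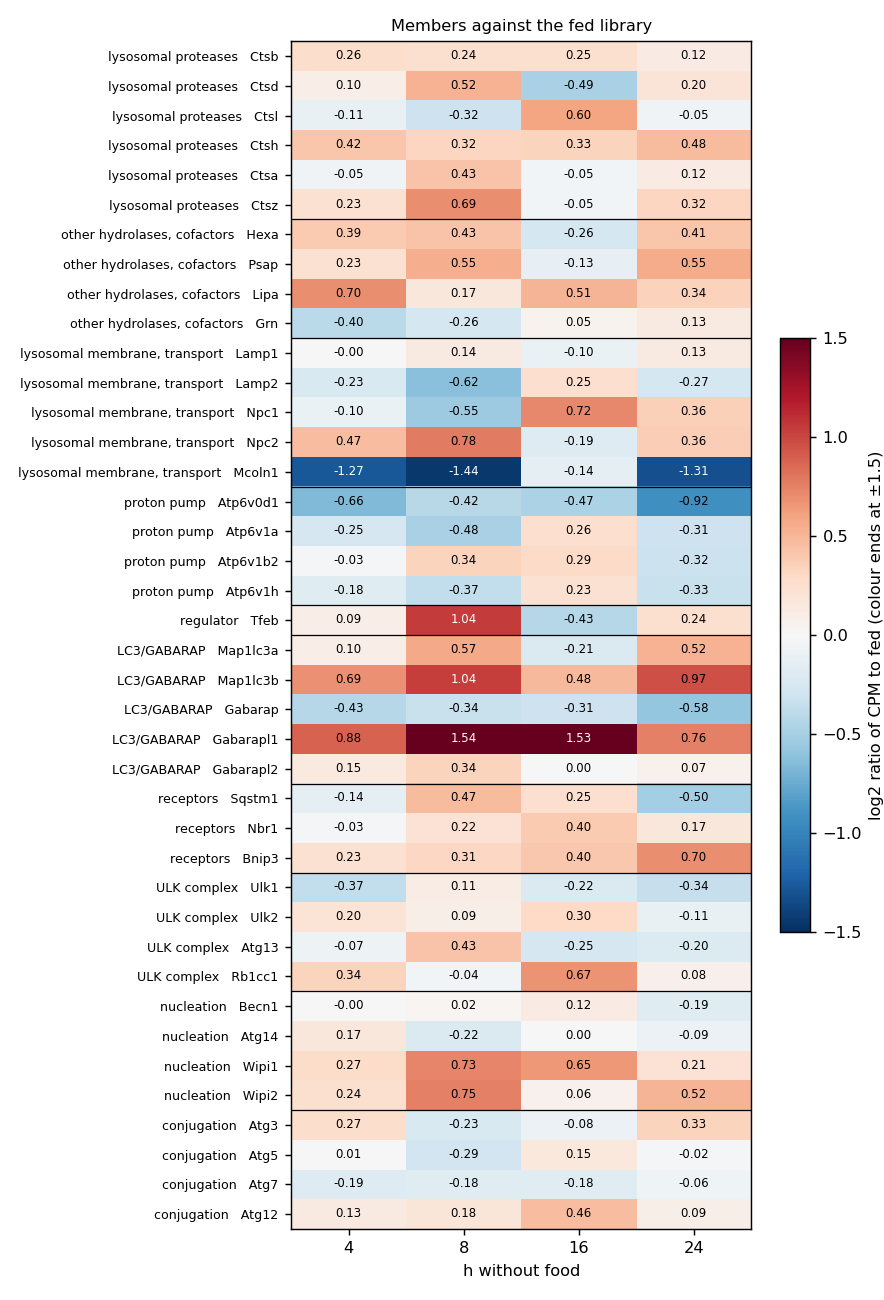
Log2 ratio of CPM to the fed library (colour and number) for the 40 members (rows, by role) at 4, 8, 16 and 24 h without food (columns). Gabarapl1 is highest, at 1.54 at 8 h, and Mcoln1 lowest, at -1.44 at 8 h, while most cells lie within 0.58 of 0, the log2 of 1.5-fold.

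The LC3 and GABARAP proteins are attached to lipid on the growing autophagosome membrane and bind both cargo receptors and the fusion machinery. Gabarapl1 (chr6:129533160-129542346, plus strand, GRCm38, GENCODE M21) was at 126, 232, 365, 362 and 213 CPM at 0, 4, 8, 16 and 24 h, from 4747 UMIs in the fed library and 12347 at 8 h. It was higher than fed in each fasted library, alike at 8 and 16 h in CPM and lower at 24 h. TMM moved the median of all genes in the step from 8 to 16 h from 0.10 to -0.08. With that shift Gabarapl1 was lower at 16 h than at 8 h. In CPM, the log2 ratios to fed were 0.88 (95% interval 0.83 to 0.93), 1.54 (1.49 to 1.59), 1.53 (1.48 to 1.58) and 0.76 (0.71 to 0.81). These and all other intervals are exact binomial or Poisson intervals and cover counting error only. Map1lc3b, which encodes LC3B (chr8:121590361-121598760, plus strand), was at 106, 171, 219, 149 and 209 CPM, with log2 ratios of 0.69, 1.04, 0.48 and 0.97. Its highest values were at 8 and 24 h, with 16 h closest to fed, and the call at 4 h was lost with all UMIs in the denominator (0.56). Gabarap went the other way, at 492 CPM when fed and 366, 390.0, 398 and 329 CPM when fasted, which at 24 h is a log2 ratio of -0.58, just short of the threshold. Map1lc3a ranged from 59.8 CPM at 16 h to 103 CPM at 8 h (69.3 CPM fed), and Gabarapl2 from 79.5 to 101 CPM. The 5 genes together summed to 873, 931, 1178, 1048 and 933 CPM, so that the sum at 24 h was near that at 4 h.

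Cargo receptors bring what is to be degraded to the autophagosome. Bnip3, a receptor for mitochondria on their outer membrane, was at 253, 296, 313, 333 and 409 CPM. In CPM it was higher at each successive time. It passed 1.5-fold only at 24 h (log2 ratio 0.70, 0.66 to 0.73), though not in the central part of the lobular range alone (0.56). The step of Bnip3 from 8 to 16 h was a log2 ratio of 0.09. TMM moved the median of all genes in that step from 0.10 to -0.08, and with that shift 16 h lies below 8 h. Sqstm1, which encodes the ubiquitin-binding receptor p62, was at 138, 125, 191, 164 and 97.2 CPM, above the fed level at 8 and 16 h and below it at 24 h (log2 ratio -0.50), with no call against fed. Nbr1, a related receptor, stayed between 93.3 and 126 CPM. Near-identical copies of the 3′ end of Bnip3 and of Rb1cc1 exist in the genome as pseudogenes that the deposited gene list does not name, and how reads from such copies were counted is not given in the sources used here.

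Autophagosome formation starts with the ULK1 kinase complex. Rb1cc1, its scaffold FIP200, was at 61.2, 77.2, 59.5, 97.3 and 64.5 CPM and was called higher only at 16 h (log2 ratio 0.67, 0.59 to 0.75), a call lost in the portal part of the lobular range alone (0.57). The kinases Ulk1 and Ulk2 and the subunit Atg13 were not called against fed, with log2 ratios between -0.37 and 0.43. Of the genes of membrane nucleation, Wipi1, a reader of phosphatidylinositol 3-phosphate, was at 11.1, 13.4, 18.4, 17.4 and 12.9 CPM. It was called at 8 h (log2 ratio 0.73, 0.55 to 0.91) and at 16 h (0.65, 0.47 to 0.83), and the 16 h value lies near the threshold. In the portal part alone neither passed it (0.47 and 0.48), and in the central part alone the 16 h value did not (0.58). Its relative Wipi2 was at 43.3, 51.2, 73.0, 45.2 and 61.9 CPM, and was called at 8 h (log2 ratio 0.75, 0.66 to 0.84). Becn1 and Atg14, subunits of the lipid kinase complex that makes this signal, ranged from 44.4 to 55.0 CPM and from 14.5 to 19.1 CPM. The conjugation genes Atg3, Atg5, Atg7 and Atg12, which attach LC3 proteins to lipid, had log2 ratios between -0.29 and 0.46 and none was called against fed.

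**Figure D2:**
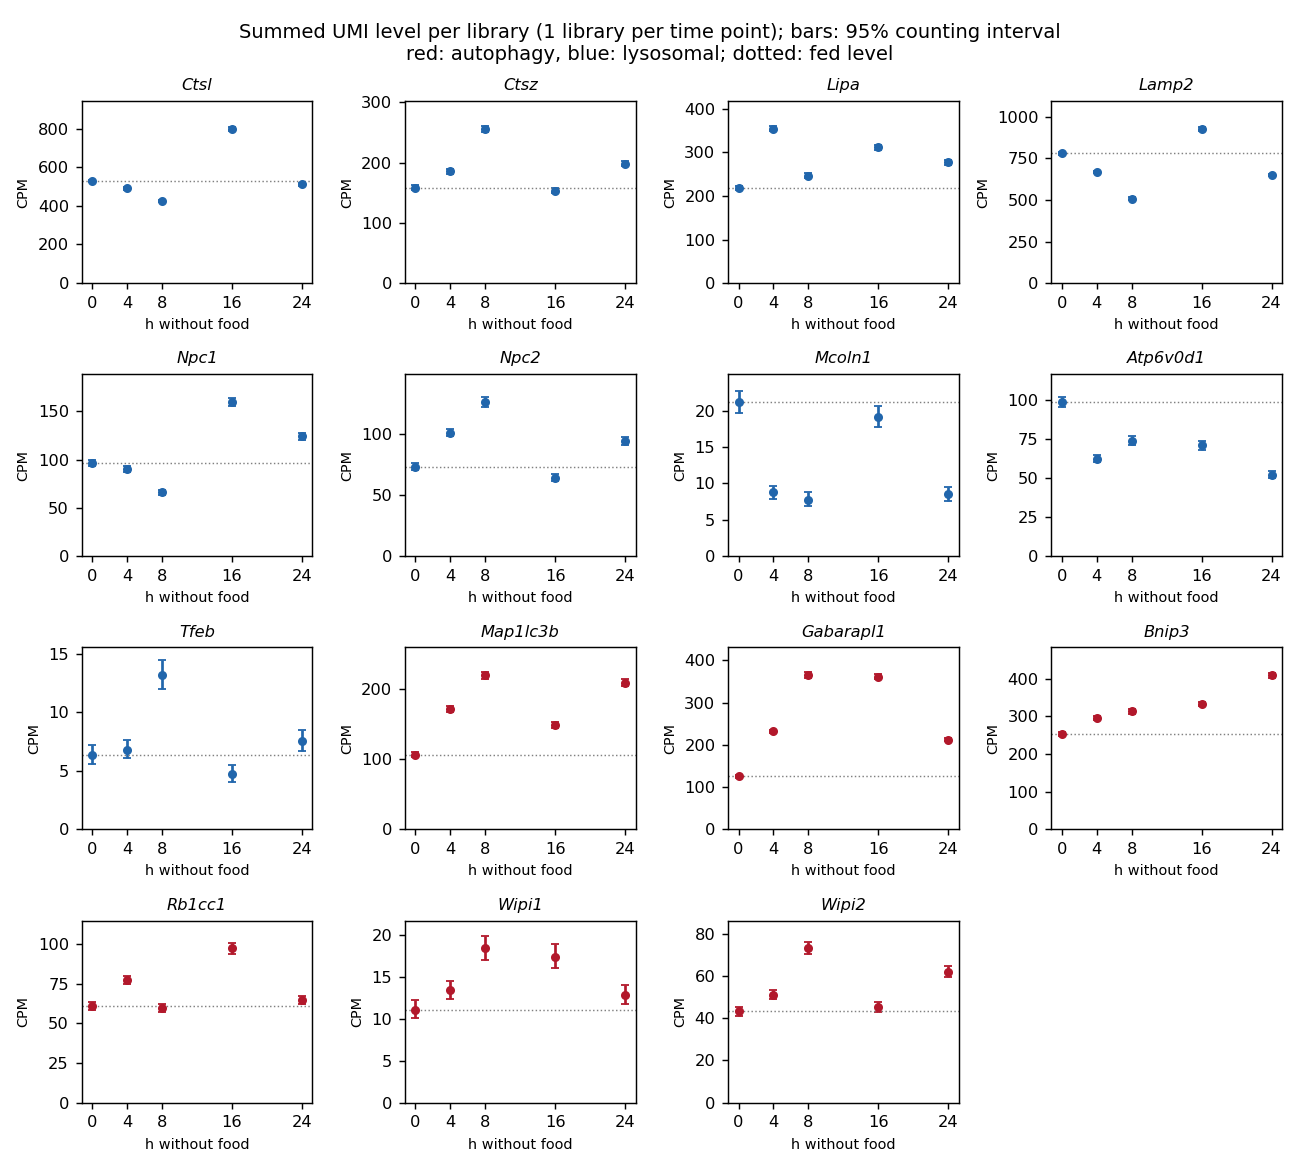
CPM (y axis, from 0, own scale per gene) against hours without food (x axis) for the 15 members called against the fed library at 1 or more times; each point is 1 library, bars are 95% counting intervals, and the dotted line is the fed level. Gabarapl1 and Map1lc3b lie above their fed levels of 126 and 106 CPM at each fasted time, while Mcoln1 at 4, 8 and 24 h lies at less than 9 CPM against 21.2 CPM when fed.

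Among the lysosomal proteases, Ctsl, which encodes cathepsin L, was at 529, 489.9, 424, 799 and 511 CPM. The 16 h library stood above the other 4, with a log2 ratio to fed of 0.60 (0.57 to 0.62), just past the threshold, and the call was lost with all UMIs in the denominator, without genes over 1% of UMIs in it, with the mean CPM per barcode and in the portal part alone (0.53 to 0.58). Ctsz, which encodes cathepsin Z, was at 158, 186, 256, 153 and 198 CPM, highest at 8 h (log2 ratio 0.69, 0.65 to 0.74). Ctsd, which encodes cathepsin D, was not called against fed, but its levels of 304 CPM at 8 h and 151 CPM at 16 h differed by a log2 ratio of -1.01 (-1.06 to -0.96). Ctsb, Ctsh and Ctsa had log2 ratios to fed between -0.05 and 0.48. Cathepsins were thus highest in different libraries, Ctsl at 16 h and Ctsd, Ctsz and Ctsa at 8 h.

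Lipa, the acid lipase that frees fatty acids and cholesterol from lipids delivered to the lysosome, was at 218, 354, 246, 311 and 277 CPM. Each fasted library was above the fed one, and only 4 h passed 1.5-fold (log2 ratio 0.70, 0.66 to 0.73). That call was lost with 2% to 15% or 0% to 30% mitochondrial UMIs, with all UMIs in the denominator and with the mean CPM per barcode, and in the first of these the log2 ratio at 4 h was 0.15. Hexa, a subunit of beta-hexosaminidase, Psap, the precursor of the saposin cofactors, and Grn, the precursor of granulins, were not called against fed. Psap came nearest, at 389.5 CPM at 8 h and 390.1 CPM at 24 h against 266 CPM when fed (log2 ratio 0.55 at both times).

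Npc1 and Npc2 act one after the other to carry cholesterol out of the lysosome, Npc2 in the lumen and Npc1 in the membrane. Npc1 was at 96.5, 90.1, 66.0, 159.5 and 124 CPM, called higher at 16 h (log2 ratio 0.72, 0.66 to 0.79). Npc2 was at 73.1, 101, 126, 64.2 and 94.1 CPM, called higher at 8 h (log2 ratio 0.78, 0.72 to 0.85). The partners had opposite extremes: at 8 h Npc2 was at its highest and Npc1 at its lowest, and at 16 h the reverse. Lamp2, a membrane protein needed for fusion with autophagosomes, was at 782, 668, 508, 928 and 649.8 CPM, called lower at 8 h (log2 ratio -0.62, -0.65 to -0.59). That call was lost with TMM and median-of-ratios scaling, with all UMIs in the denominator, with the mean CPM per barcode and with 0% to 30% mitochondrial UMIs, at log2 ratios of -0.58 to -0.43. Lamp1 stayed between 668 and 789 CPM.

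Mcoln1, a calcium channel of the lysosomal membrane (chr8:3500457-3515232, plus strand), was at 21.2, 8.76, 7.78, 19.2 and 8.52 CPM, from 800 UMIs in the fed library and 263 at 8 h. The fed and 16 h libraries were alike, and the other 3 were lower, with log2 ratios at 4, 8 and 24 h of -1.27 (-1.45 to -1.10), -1.44 (-1.65 to -1.24) and -1.31 (-1.51 to -1.13). The fed and 16 h libraries were also those with the fewest UMIs per barcode, at medians of 5408 and 4391 against 8979 to 15005 in the others. They also had the highest sums of 10 early-response and heat-shock genes that cell dissociation can induce, at 443 and 588 CPM against 351, 187 and 174 CPM at 4, 8 and 24 h. The median mitochondrial shares were 11.9%, 19.1%, 9.79%, 13.7% and 16.3% in order of time. The parts of dissociation and of depth in this pattern were not tested. A minimum of 3000 UMIs does not match the libraries in depth. Barcodes with 10000 or more nuclear-encoded UMIs numbered 93, 2203, 1804, 3 and 1722 at 0, 4, 8, 16 and 24 h. Over barcodes of 3000 or more UMIs the log2 ratio of Mcoln1 was -1.26 at 4 h and -1.28 at 24 h. Over the planned settings that use all 3 parts of the lobular range, described further on, it lay between -1.56 and -1.12 at 4 h and between -1.65 and -1.17 at 24 h. The 4 h ratio was -1.25 in the portal part alone and -1.53 in the central part alone. The 24 h ratio was -1.14 in the portal part and -2.16 in the central part.

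The proton pump that acidifies the lysosome was represented by 4 subunits. Atp6v0d1 was at 98.7, 62.5, 73.9, 71.1 and 52.3 CPM, below the fed level in each fasted library and called lower at 4 h (log2 ratio -0.66, -0.73 to -0.59) and 24 h (-0.92, -0.996 to -0.837). The call at 4 h was lost with TMM and median-of-ratios scaling (-0.51) and in the central part alone (-0.53). Atp6v1a, Atp6v1b2 and Atp6v1h were not called against fed, and their log2 ratios lay between -0.48 and 0.34. At 24 h all 4 subunits were below the fed level, with a median log2 ratio of -0.33, beside -0.10 for all genes. Tfeb, the transcription factor for lysosomal genes, was at 6.38, 6.81, 13.2, 4.74 and 7.56 CPM, from 241 UMIs when fed and 445 at 8 h. The 8 h library was 2.06-fold above fed (log2 ratio 1.04, 0.82 to 1.28), and in the other comparisons with fed Tfeb stayed under the 10 CPM minimum. Of the 6 members with TCACGTGA in the promoter, Mcoln1 and Atp6v0d1 were called lower than fed at 1 or more times. Ctsd, Ctsa, Atp6v1a and Atg3 were called in neither direction against fed, although some settings called Ctsd, Ctsa and Atp6v1a. Ctsd and Ctsa were called higher at 8 h with TMM and median-of-ratios scaling. Atp6v1a was called lower at 4 h over barcodes of 2% to 15% mitochondrial UMIs (-0.80), at 8 h in the middle part of the lobular range (-0.60) and at 24 h in its central part (-0.64).

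In the steps between neighbouring libraries, the numbers of members called had the same order as the shares of all genes called, lowest between 4 and 8 h and highest between 8 and 16 h. Between 4 and 8 h, Tfeb, Gabarapl1 and Sqstm1 were higher and no member was lower, with 7.35% and 8.7% of all genes called higher and lower. Over barcodes of 2% to 15% mitochondrial UMIs, 10 members were higher in this step in place of 3, with 16.3% of all genes. Between 8 and 16 h, 7 members were higher, namely Ctsl, Lamp2, Npc1, Mcoln1, Atp6v1a, Atp6v1h and Rb1cc1, and 9 were lower, namely Ctsd, Ctsz, Hexa, Psap, Npc2, Tfeb, Map1lc3a, Atg13 and Wipi2. All genes were called at 25.1% and 18.8% in that step. Between 16 and 24 h, Ctsd, Hexa, Psap and Map1lc3a were higher, and Ctsl, Mcoln1, Atp6v1b2, Gabarapl1, Sqstm1 and Rb1cc1 were lower, with 14.2% and 19.4% of all genes. The 16 h library enters both of the later steps. Hour of day changes with each step and cannot be told apart from fasting time.

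Other genes of the pathway were taken from 6 lists of 145 genes in all. Of those with 10 CPM, 12 were higher and 9 lower than fed at 4 h (of 122), 17 and 21 at 8 h (of 122), 11 and 4 at 16 h (of 122), and 14 and 18 at 24 h (of 120). The shares of all genes in the same comparisons were 9.84% and 17.5%, 14.7% and 23.2%, 9.42% and 11.8%, and 12.8% and 20.6%, so that the counts called higher lay near the background. The further cargo receptors had the highest list median, with log2 0.20, 0.46, 0.23 and 0.24 over 16 genes, and the remaining proton pump subunits had negative medians at each time, with log2 -0.18, -0.10, -0.34 and -0.22 over 13 genes, of which the value at 8 h turns positive with TMM. Retreg1, a receptor for the endoplasmic reticulum (FAM134B), was at 50.01, 219, 338, 143 and 99.8 CPM. Its log2 ratio of 2.76 at 8 h was above that of every one of the 40 members, and it was higher than fed in each fasted library. Pink1, the kinase that marks damaged mitochondria, was at 68.8, 148, 174, 81.5 and 158 CPM, close to fed only at 16 h. Calcoco1, a receptor for endoplasmic reticulum and Golgi, was at 6.40, 14.9, 12.2, 19.7 and 14.8 CPM. In the same list, the mitochondrial receptor Fundc1 was at 14.1, 10.2, 7.04, 11.5 and 6.63 CPM, called lower at 8 h (log2 ratio -1.01) and 24 h (-1.09). Fkbp8, another mitochondrial receptor, was called lower at 16 h (log2 ratio -0.60) and was at -0.02 at 24 h, and Rtn3 was at -0.22 at 24 h.

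Among upstream regulators, Foxo1, a transcription factor restrained by insulin, was at 29.6, 80.8, 96.0, 34.3 and 70.0 CPM. It was near fed at 16 h, and the other fasted libraries were above fed by log2 ratios of 1.24 to 1.70. Ppara, the nuclear receptor for fatty acids, was at 57.2, 95.5, 79.4, 95.8 and 134 CPM. Sesn2, a leucine sensor and inhibitor of mTORC1, was at 2.65, 6.24, 8.99, 4.80 and 11.2 CPM, from 100 UMIs in the fed library (log2 ratio 2.08 at 24 h, 1.76 to 2.41). Ddit4, which encodes the mTORC1 inhibitor REDD1 and is named here after its values were seen, was at 5.29, 14.8, 56.1, 2.68 and 7.42 CPM. Its log2 ratio of 3.41 at 8 h (3.20 to 3.62) was the highest of the wider lists in that library, and from 8 to 16 h it was -4.39. In the other direction, Vmp1, a lipid scramblase of autophagosome growth, was at 328, 175, 133, 279 and 115 CPM. Ctns, the exporter of cystine from the lysosome, was at 30.6, 13.2, 11.3, 31.9 and 11.2 CPM. Rraga, a GTPase that brings mTORC1 to the lysosome, was at 62.8, 33.5, 26.2, 49.5 and 30.4 CPM. Like Mcoln1, these genes were closest to fed at 16 h. The fed and 16 h libraries were also the shallowest per barcode, and they differed in clock hour and in the acute-phase sum. The part of these properties was not tested. Atg16l2 was at 8.43 to 10.9 CPM from 0 to 16 h and at 2.18 CPM at 24 h (log2 ratio -2.32, -2.68 to -1.98).

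Among genes with 10 CPM in the fed or the 24 h library, the other genes at the ends of these lists are given by their log2 ratio to fed at 24 h. Among the further hydrolases, Arsa (0.70) and Neu1 (0.48) were among the highest, and Dnase2a (-1.12), Lgmn (-0.82) and Tpp1 (-0.73) were lowest. Among the further membrane proteins, Tmem192 (0.81), Lamtor4 (0.53) and Slc17a5 (0.50) were highest, and Ctns, Cln3 (-0.96) and Ostm1 (-0.82) lowest. Of the remaining core autophagy genes, Vamp8 (0.68), Wdr45 (0.64) and Atg2a (0.56) were highest, and Tmem41b (-1.04) was lowest after Atg16l2 and Vmp1. The remaining pump subunits spanned from Atp6ap1 (-0.63), Atp6v0e (-0.58) and Atp6v1d (-0.41) to Atp6v0a1 (-0.05), Atp6v1f (-0.04) and Atp6ap2 (0.11). Besides Rraga, the lowest regulators were Tfe3 (-0.92), a relative of TFEB, and Prkaa2 (-0.83), a catalytic subunit of AMP-activated kinase.

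**Figure D3:**
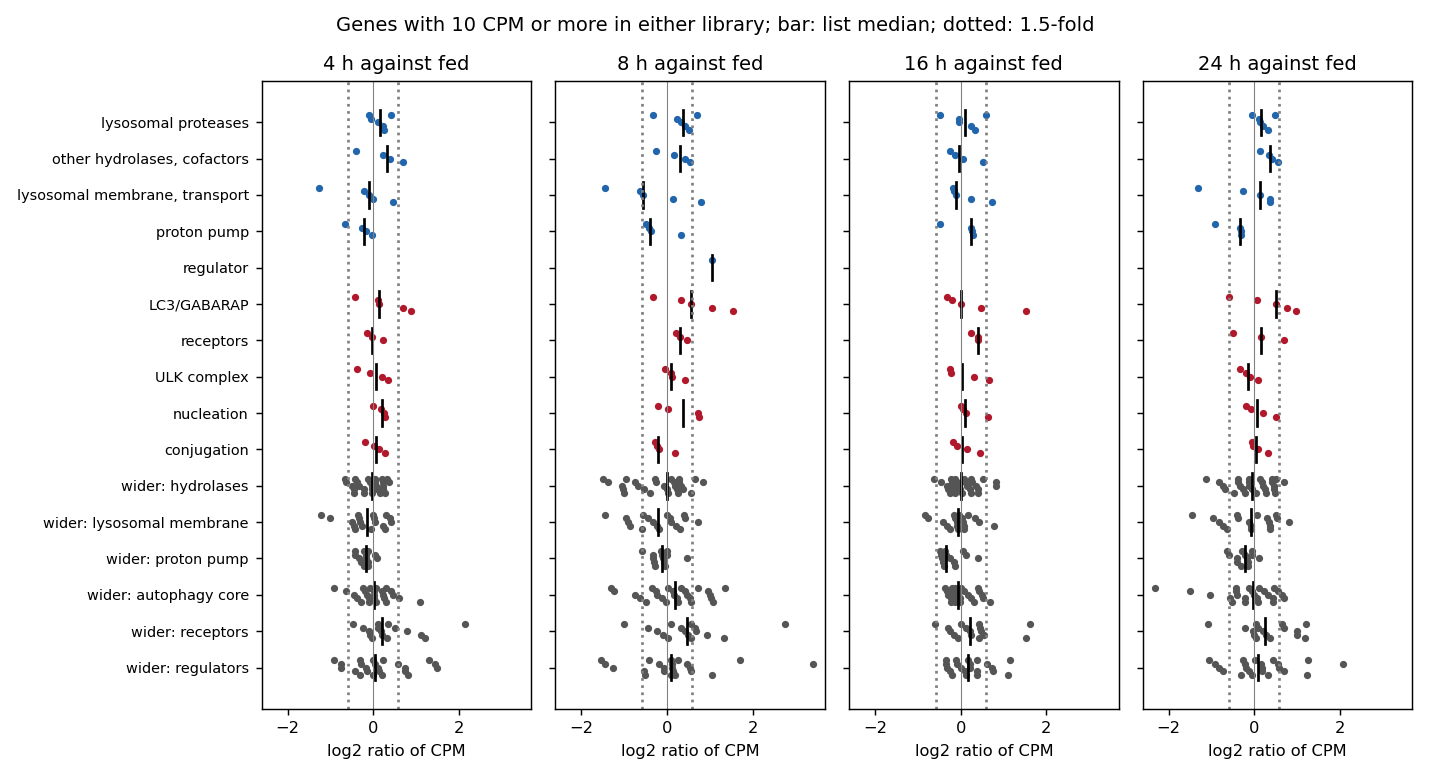
Log2 ratio of CPM to fed (x axis) for each gene with 10 CPM in either library, by role (rows; blue lysosomal members, red autophagy members, grey the wider lists) at 4, 8, 16 and 24 h (panels); the black bar is the median and dotted lines mark 1.5-fold. Most points lie between the dotted lines, and the medians of the wider receptors lie at 0.20 to 0.46.

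Hepatocytes differ along the lobule, from the portal side, where Cyp2f2 is high, to the central side, where Cyp2e1 is high. The barcodes of each library were split into 3 equal parts by the ratio of these 2 genes, called portal, middle and central part, which are ranges and not positions in tissue. Barcodes with no UMI of either gene numbered 195 of the 1526 in the central part at 24 h, 85 of 2609 in the fed central part and 18 and 45 in those at 8 and 16 h, and at 4 h 27 such barcodes fell in the middle part. The central part was the shallowest in each library (median UMIs 2812 against 5719 in the portal part when fed, and 3028 against 11202 at 24 h), and it held 174 of the 193 fed barcodes rich in markers of other cell types. At 24 h the portal landmark Sds was higher in the central part (638 CPM) than in the portal part (398 CPM), and the central landmark Glul was higher in the portal part (55.0 against 46.6 CPM), so that the split at 24 h goes against these 2 landmarks. Hal, Cyp1a2 and Oat kept the side that they had in the other libraries. The part of depth and of other cells in the differences below was not tested.

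In the fed library and at 4 h, no member differed by 1.5-fold between portal and central part, with 1.66% and 5.57% of all genes called portal and central at 0 h, and 4.02% and 5.14% at 4 h. At 8 h the conjugation enzyme gene Atg7 was higher in the central part, at 32.0 CPM against 19.8 CPM (log2 portal to central -0.69, -0.95 to -0.44), where 1.72% of all genes were called portal and 2.99% central. With other landmarks for the split this call was lost (-0.55). At 16 h Mcoln1 was higher in the central part, at 24.1 CPM against 15.9 CPM (log2 -0.60, -0.88 to -0.31), beside 2.27% and 4.87% of all genes, a call lost with 0% to 30% mitochondrial UMIs (-0.53) and without the 2% of barcodes with most UMIs (-0.57). The median of the members was -0.11, -0.17, -0.15 and -0.22 from 0 to 16 h, beside -0.07, -0.03, -0.05 and -0.09 for all genes. At 4 h the members' median turned to 0.16 with 0% to 30% mitochondrial UMIs and to 0.22 with 2% to 15%, where that of all genes was 0.14 and 0.24. Each of the 5 LC3 and GABARAP genes was on the central side in the first 4 libraries, with log2 ratios between -0.51 and -0.13, except that Gabarapl1 at 4 h was at 0.03 and 0.23 in these respective settings. None of these genes was called there in the main setting. Only 37.8%, 44.9%, 41.3% and 33.0% of all genes had a portal-side ratio from 0 to 16 h, so that most genes were on the central side too.

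At 24 h, 5 members were higher in the portal part and 3 in the central part, beside 8.54% and 11.9% of all genes. Those on the portal side were Ctsb (521 against 329.7 CPM), Lipa (311 against 204 CPM), Grn (314 against 187 CPM), Lamp1 (888 against 554 CPM) and Ulk1 (56.9 against 35.2 CPM). Those on the central side were the LC3 family genes Map1lc3a (134 against 83.6 CPM), Map1lc3b (286 against 173 CPM) and Gabarapl2 (116 against 69.7 CPM). The median of all members at 24 h was 0.17, beside 0.16 for all genes, and 28 of the 38 with 10 CPM had a portal-side ratio, as did 63.7% of all genes. The lysosomal members had a median of 0.37, with 17 of 18 on the portal side, and the autophagy members one of 0.03, with 11 of 20. This 24 h difference was lost in deeper barcodes: over those with 3000 or more UMIs, 0 members were called in either direction, where 0.517% of all genes were called portal and 4.28% central. With other landmarks for the split it was 1 portal (Ulk1) and 0 central, beside 3.08% and 2.04% of all genes. Over barcodes of 2% to 15% mitochondrial UMIs 22 members were called portal, where 47.6% of all genes were called so, and the members' counts thus moved with those of all genes.

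**Figure D4:**
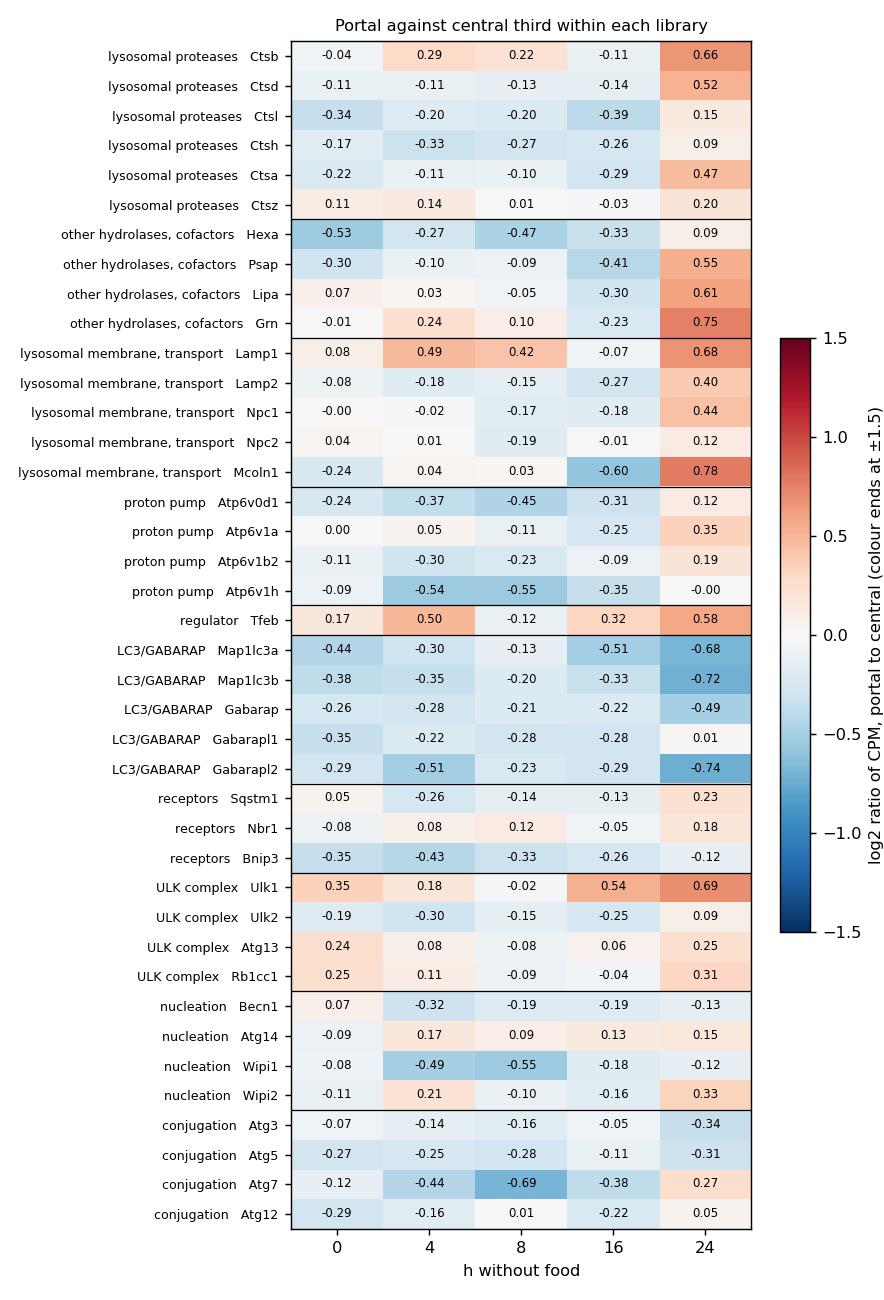
Log2 ratio of CPM between portal and central part (colour and number; red, higher in the portal part) for the 40 members (rows, by role) in each library (columns, hours without food). The LC3 and GABARAP rows are blue from 0 to 16 h, and most lysosomal rows are red at 24 h, where Grn reaches 0.75 and Ctsb 0.66.

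The differences from fed were also read within each part, as a choice made after the data had been seen. Gabarapl1 was higher at 8 h by a log2 ratio of 1.64 in the portal part and 1.58 in the central part, and at 16 h by 1.58 and 1.51. At 24 h it was called in the portal part (0.89) and not in the central part (0.53). Map1lc3b was called in both outer parts at 4, 8 and 24 h, with log2 ratios of 0.69 and 0.66, 1.11 and 0.93, and 0.85 and 1.19 in portal and central part. Mcoln1 was lower in both at 4, 8 and 24 h, by -1.25 and -1.53, -1.30 and -1.58, and -1.14 and -2.16. For these 3 genes the direction of the difference was thus met in both outer parts of the lobular range. Whether its size differed between the parts was not tested. Both parts come from the same libraries and are not matched between times. Cyp2e1 in the central part was at 5406, 8921, 4208.5 and 2342 CPM at 0, 4, 8 and 24 h. Some members were called within an outer part and not over all barcodes. In the portal part these were Npc1 (-0.69) and Map1lc3a (0.70) at 8 h, and Psap (0.76), Wipi2 (0.61) and Gabarap (-0.67) at 24 h. In the central part they were Grn at 4 h (-0.60), Sqstm1 at 8 h (0.66) and Lipa at 16 h (0.71). At 24 h the central part added Map1lc3a (0.69), Lamp2 (-0.61), Atp6v1a (-0.64), Sqstm1 (-0.63) and Ulk1 (-0.62). Of all genes, 16.6% and 22.2% were called higher and lower in the portal part at 8 h, and 13.5% and 19.8% at 24 h. In the central part these shares were 9.54% and 19.7% at 4 h and 15.1% and 25.1% at 8 h. There they were 11.2% and 14.9% at 16 h and 12.7% and 31.6% at 24 h.

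The spread over single barcodes was read after thinning each to 2000 nuclear-encoded UMIs, which left out 1444, 1073, 220, 1497 and 225 shallower barcodes. The median barcode held 3, 4, 5, 4 and 4 UMIs of the 20 autophagy members at 0, 4, 8, 16 and 24 h, and 18.2, 20.1, 23.3, 22.1 and 20.9 per 10000 before thinning. For the 20 lysosomal members it held 9, 9, 9, 9 and 8 UMIs, and 43.1, 44.9, 44.3, 47.4 and 44.7 per 10000 before thinning. The ratio of variance to mean, which is 1 for pure counting noise, was 1.40, 1.34, 1.03, 1.16 and 2.22 for lysosomal UMIs, so that 24 h barcodes were the most unequal. There the 1610 barcodes of 2000 to 5000 nuclear-encoded UMIs held a median of 5 lysosomal UMIs, against 11 in the 1019 barcodes up to 10000 and 9 in the 1722 deeper ones. In the fed library, barcodes of the same 2 lower ranges held 9 and 8. The shallow 24 h barcodes also had a lower mitochondrial share, with a median of 11.7% against 19.8% and 16.6% in the deeper ranges, and their autophagy UMIs had a median of 4, against 3 and 4.

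**Figure D5:**
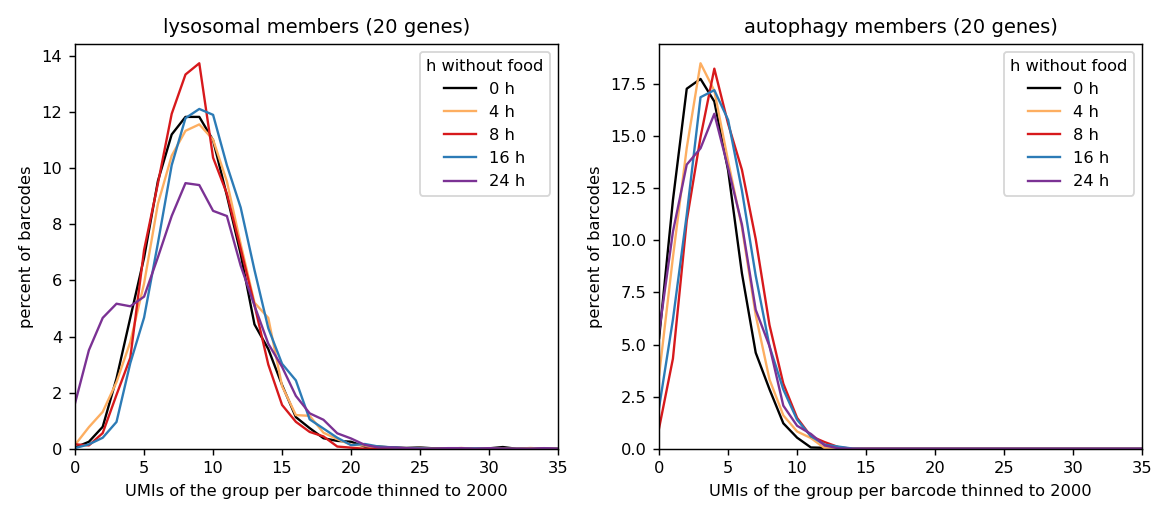
Percent of barcodes (y axis) by the number of UMIs of the 20 lysosomal (left) and 20 autophagy members (right) per barcode thinned to 2000 UMIs (x axis), 1 line per library. The 24 h lysosomal curve has a shoulder at low counts and a median of 8, and the 8 h autophagy curve lies farthest right of the fed one, with medians of 5 and 3.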

How the data were processed

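The deposited matrix held UMI counts per gene and barcode for 50000 barcodes, 10000 per library, without normalization. The counts were made by the authors with Cell Ranger 6.0.1 and the build mm10, per the submitters' processing notes. The annotation version is not given in the sources used here, and 519 of the 50000 barcodes shared their sequence with a barcode of another library.

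The members, lists and rules were chosen with earlier results of these data known. UMIs were summed over the barcodes that met the rule and divided by their nuclear-encoded UMIs (CPM). Ratios carry exact conditional binomial intervals, and CPM exact Poisson intervals, at 95%. With 1 library per time point no p-value is given. 3′ UMI counts are not per gene length, and levels of different genes are not ranked. No doublet caller was used, and an alternative left out the 2% of barcodes with most UMIs. Members called at 1.5-fold against fed or between outer parts are given in full, the others by range, and wider genes by the 3 highest and 3 lowest ratios at 24 h per list, of which 1 gene is not reported here. Barcodes were thinned by a hypergeometric draw (seed 1). The zone score was log2 of Cyp2f2 over Cyp2e1, each per 10000 plus 1. The calling script was tested on simulated data. Tools were python 3.11.15, numpy 2.4.6, pandas 2.3.3, scipy 1.17.1, matplotlib 3.10.9, R 4.3.3, edgeR 4.0.16 (for TMM factors only) and blastn 2.17.0 (for copies of 3′ ends). Of the 32285 gene IDs, 32158 were found in GENCODE M21.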

Additional observations from a re-analysis of the deposited data

How the results depend on the processing

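No paired analysis was possible because each time point is 1 library with no replicate numbers. Depth limits the low members most, such as Tfeb (241 fed UMIs), and the cause of the changes listed here was not tested. No member ratio that was called changed sign under any setting. Counts against fed are given as lysosomal higher and lower, then autophagy higher and lower, and a setting is listed where it moved a count by over 1.5 times. In the main setting they were 1, 2, 2 and 0 at 4 h, 3, 2, 4 and 0 at 8 h, 2, 0, 3 and 0 at 16 h and 0, 2, 3 and 0 at 24 h.

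With all UMIs in the denominator, lysosomal higher became 0 at 4 h and 1 at 16 h, autophagy higher 1 at 4 h, lysosomal lower 1 at 8 h, autophagy lower 1 at 24 h, and 10 members were higher between 4 and 8 h in place of 3 (14.9% of all genes in place of 7.35%). TMM and median-of-ratios scaling each gave lysosomal higher 2 at 4 h, 7 at 8 h and 2 at 24 h, lysosomal lower 1 at 4 and 8 h, autophagy higher 7 at 8 h and 5 at 24 h, and 3 members lower between 16 and 24 h in place of 6. With TMM the shares of all genes higher and lower became 14.9% and 12.2% at 4 h, 22.6% and 16.2% at 8 h, and 17.4% and 15.7% at 24 h. Between 16 and 24 h, 13.7% of all genes were lower with TMM in place of 19.4%. With median-of-ratios scaling the shares higher were 15.1%, 23.0% and 18.1% at 4, 8 and 24 h, and 13.9% were lower in that step. TMM gave 4 higher between 8 and 16 h in place of 7, with 17.4% of all genes in place of 25.1%. Leaving genes over 1% out of the denominator gave lysosomal higher 1 at 16 h and autophagy lower 1 at 24 h. The mean CPM per barcode gave lysosomal higher 0 at 4 h and 1 at 16 h, lysosomal lower 1 at 8 h, autophagy lower 1 at 24 h, 7 higher between 4 and 8 h, and 2 higher and 10 lower between 16 and 24 h (14.9% and 29.1% of all genes).

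With 0% to 30% mitochondrial UMIs, lysosomal higher became 0 at 4 h, lysosomal lower 1 at 8 h and autophagy lower 2 at 24 h (26.8% of all genes lower in place of 20.6%), with 9 higher and 1 lower between 4 and 8 h (9.63% and 10.2% of all genes) and 12 lower between 16 and 24 h (30.6% in place of 19.4%). With 2% to 15%, lysosomal higher and lower became 0 and 5 and autophagy lower 1 at 4 h (29.8% of all genes lower), with 10 higher and 1 lower between 4 and 8 h (16.3% and 10.3%). With 3000 or more UMIs, lysosomal higher and autophagy lower each became 1 at 24 h. Without marker-rich barcodes lysosomal higher became 1 at 24 h, and without the 2% of barcodes with most UMIs autophagy lower became 1 at 24 h. A minimum of 50 CPM left lysosomal lower at 1 at 4, 8 and 24 h. At 2-fold, lysosomal higher became 0, 1 and 0 at 4, 8 and 16 h, lysosomal lower 1 at 4, 8 and 24 h, and autophagy higher 0, 2, 1 and 0 at 4, 8, 16 and 24 h. At this threshold 3.67% and 6.04%, 5.68% and 11.2%, 2.87% and 3.60%, and 4.73% and 8.77% of all genes were higher and lower at these times. The steps at 2-fold had 0 higher from 4 to 8 h, 2 higher and 2 lower from 8 to 16 h, and 0 higher and 1 lower from 16 to 24 h. The shares of all genes higher and lower in these steps were 1.12% and 2.06%, 10.5% and 7.25%, and 5.19% and 5.78%. Added after the data had been seen, the portal part alone gave lysosomal and autophagy higher 1 each at 16 h, and lysosomal higher 1 and autophagy lower 1 at 24 h. The central part alone gave lysosomal lower 4 and autophagy lower 2 at 24 h, where 31.6% of all genes were lower.

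Between the lobular parts, the main counts (portal, central) were 0 and 0 at 0 and 4 h, 0 and 1 at 8 and 16 h, and 5 and 3 at 24 h. With 0% to 30% mitochondrial UMIs they were 1 and 4, 5 and 3, 1 and 2, 1 and 0, and 21 and 5 from 0 to 24 h, where the shares of all genes called also grew, to 13.3% and 13.1% at 4 h and 42.0% and 20.1% at 24 h. With 2% to 15% they were 10 and 4 at 4 h (31.1% and 13.3% of all genes), 1 and 2 at 16 h and 22 portal at 24 h (47.6%). With 3000 or more UMIs both were 0 at 24 h. At 50 CPM central was 0 at 8 and 16 h, as it was at 16 h without the 2% of barcodes with most UMIs, and at 2-fold all were 0 at 8, 16 and 24 h. At a difference of 25% they were 1 and 6, 1 and 8, 1 and 6, 1 and 8, and 12 and 5, beside 6.00% and 17.9%, 11.5% and 16.5%, 6.45% and 11.2%, 6.12% and 17.1%, and 32.1% and 20.1% of all genes. With other landmarks they were 1 and 1 at 0 h (2.46% and 5.17% of all genes), 1 central at 4 h (5.04%), and 1 and 0 at 24 h (3.08% and 2.04%). With the outer of 5 equal parts, central was 1 at 0 and 4 h, portal and central 1 and 4 at 8 h and 1 and 2 at 16 h, and central 5 at 24 h. In that setting all genes were called portal and central at 3.07% and 8.75%, 4.80% and 7.09%, 3.44% and 6.01%, 3.56% and 8.70%, and 14.7% and 17.0% from 0 to 24 h.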
